A study of Mus musculus with 6 samples.

Results

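Collagen genes were followed at E12.5 in mouse anterior palatal mesenchyme in which a floxed Meis2 allele meets Wnt1Cre, a recombinase of the neural crest lineage. They are the 44 rows, of 24421 per the authors' deposited table of all libraries, whose symbol is Col, a number, the letter a and a number, and the same rows were read in a second table. RNA-seq had been made from 3 Wnt1Cre;Meis2f/f and 3 wildtype samples, all of C57BL/6 background, after the palatal epithelium had been removed with Dispase II. The labels call the 3 samples of a genotype biological replicates. They give neither the sex of the embryos nor whether embryos were pooled, and no sample carries Wnt1Cre or the floxed allele alone, so an effect of either cannot be told apart from loss of Meis2.

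Collagens are trimers of chains that wind into a triple helix. Fibrillar collagens form the cables of connective tissue, FACIT collagens sit on the surface of these fibrils, network collagens form sheets such as the basement membrane, and transmembrane collagens anchor in the cell membrane. In the palatal shelf the collagenous matrix fills the space between the neural crest-derived mesenchymal cells before bone forms there.

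The authors' deposited tables hold 1 comparison of all 6 libraries and 1 of 4 of the same 6, with 2 of each genotype, so the tables share libraries and are not independent. Each gives a base mean (the mean of read counts after division by a size factor per library), a log2 fold change, its standard error and the p of a DESeq2 Wald test. A gene is called here at an adjusted p under 0.05. DESeq2 shrank the fold changes toward 0, and more so at low read numbers. Because base means are averages of whole reads, the reads of each library could be solved back for 41 of the 44 genes, and they are given as normalised reads, that is reads divided by the size factor. Libraries in both tables are called A and B and the library in the 6-library table alone C, since the tables do not say which labelled replicate each is. The size factors ran from 0.775 to 1.44 and the reads summed over the genes solved from 7074095 to 12809792 per library.

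Meis2, the targeted gene, had 1250, 1218 and 1378 normalised reads in mutant libraries A, B and C, against 1526, 1695 and 1549 in wildtype libraries A, B and C. The labels do not name the sign of the tables, which was read from this gene, so its lower level is no check of the genotypes, and every direction below rests on that reading. Its log2 fold change was -0.28 (SE 0.0917, adjusted p 0.0743, DESeq2 Wald test) with 6 libraries and -0.33 (SE 0.0930, adjusted p 0.0213) with 4, per the authors' deposited tables. The deleted exons are not named in the labels, so reads of a shortened transcript would still be counted.

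Of 42 collagen genes at a base mean of 10 or more over 6 libraries, 4 were called and 38 were not, beside 2.9% called among all 14942 genes tested per the authors' deposited table. Col25a1 and Col9a1 fell to about 0.53 and 0.58 of the wildtype level, and Col4a6 and Col19a1 rose 1.43-fold and 1.41-fold, by the moderated fold changes of the authors' deposited table. The 2 higher and the 2 lower genes are each 4.76% of the 42, beside 1.75% called higher and 1.16% called lower among all genes tested per the authors' deposited table. Counts of 2 do not show that collagen genes differ from other genes in this respect. The median log2 fold change of the 42 genes was -0.05, against -0.01 for all 14577 genes at that base mean or above, per the authors' deposited table. At an unadjusted p under 0.05 there were 6 higher and 5 lower collagen genes, beside 5.46% and 5.21% of all genes at that base mean, per the authors' deposited table. By limma on the recovered reads 1 collagen gene was higher (Col4a6) and 2 lower (Col25a1 and Col9a1), beside 1.3% and 0.846% of 14191 genes. Col4a3 and Col6a5 lay under the base mean of 10 and had no adjusted p there.

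**Figure D1:**
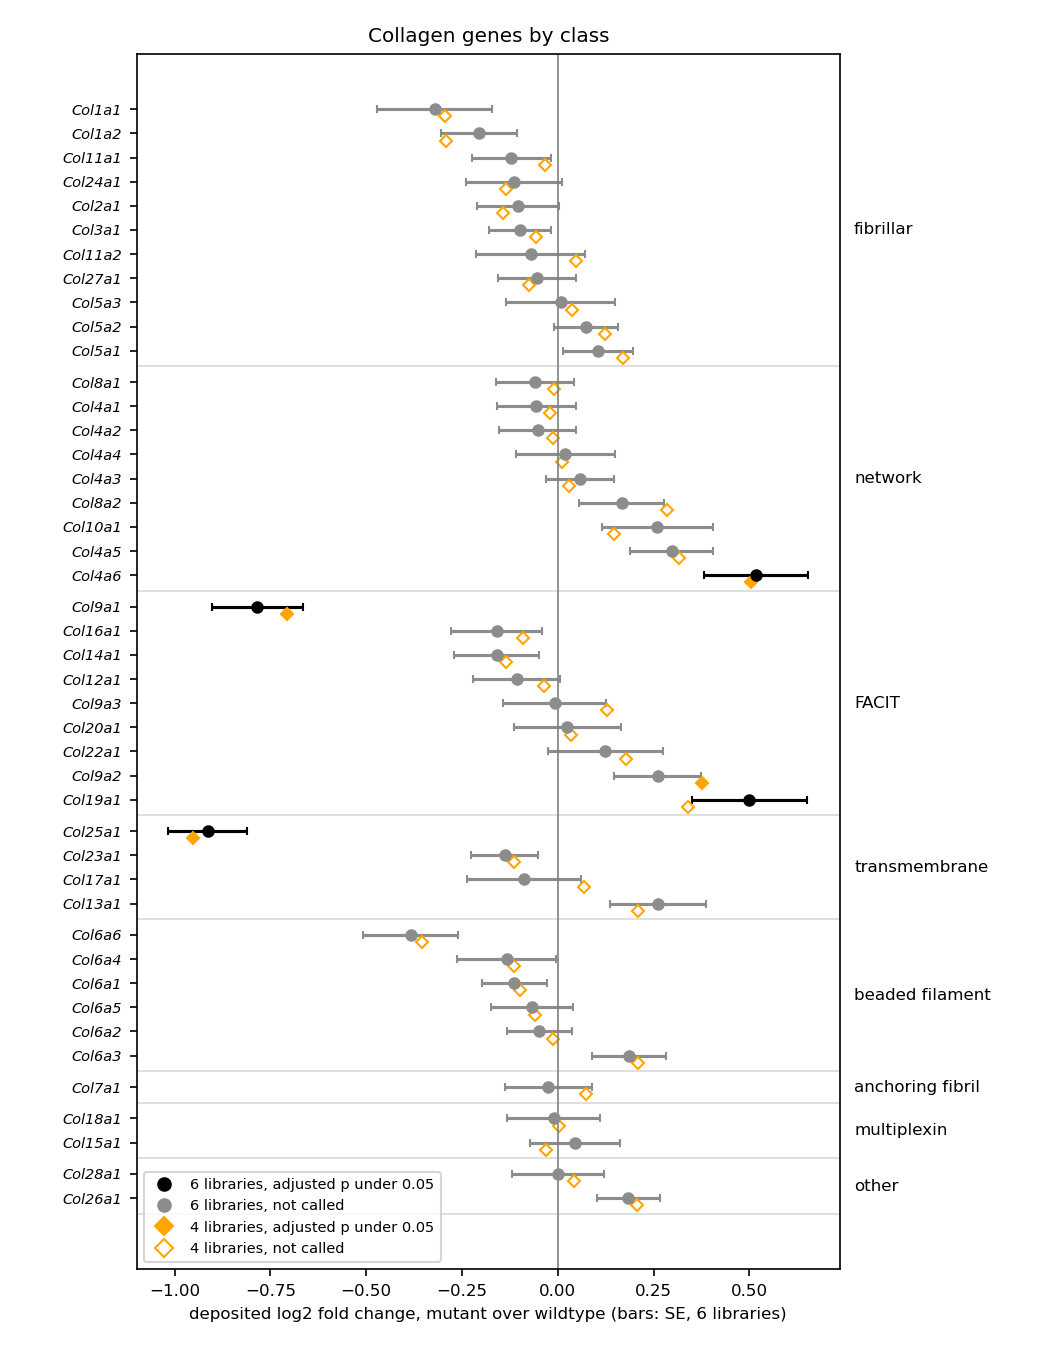
Deposited log2 fold change (mutant over wildtype) of the 44 collagen genes, grouped by class, with circles and SE bars for 6 libraries and diamonds for 4 libraries. Black circles and filled diamonds have an adjusted p under 0.05; Col25a1 at -0.91 and Col9a1 at -0.78 lie apart at the left, and Col4a6 at 0.52 and Col19a1 at 0.50 at the right. Col4a3 and Col6a5, under a base mean of 10, are drawn too.

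In the 4-library comparison 2 collagen genes were again called higher and 2 lower, beside 1.31% and 0.99% (2.3% in either direction) of 14548 genes tested per the authors' deposited table. Col25a1, Col9a1 and Col4a6 were called in both tables. Col19a1 was called with 6 libraries only, and Col9a2 with 4 libraries only. With 4 libraries the median log2 value over the collagen genes was -0.0029 and that over all genes -0.0017, per the authors' deposited table.

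Transmembrane collagens held the largest collagen fall. Col25a1 (chromosome 3, 130131501 to 130599877, plus strand, GRCm38, GENCODE M21) codes for a collagen of neurons and muscle cells that in mice is needed for motor axons to enter muscle. Its normalised reads were 2037, 1941 and 2394 in mutant libraries A, B and C, against 4253, 3982 and 5015 in wildtype libraries A, B and C. Each mutant library had fewer reads than each wildtype library, and the gap between the groups was wider than the range within either. The means were 2124 ± 239 in mutant and 4417 ± 536 in wildtype libraries (SD, n = 3 each), a ratio of 0.481. Over 6 libraries the base mean was 3270 and the log2 fold change -0.91 (SE 0.103, p 5.04e-19, adjusted p 4.71e-16, DESeq2 Wald test) per the authors' deposited table. With 4 libraries the base mean was 3147 and the log2 fold change -0.95 (SE 0.0805, p 2.47e-32, adjusted p 1.20e-28, DESeq2 Wald test) per the authors' deposited table.

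The stretch before the start of the Col25a1 transcript is shown because this gene changed most. It is the 250 bases upstream of the RefSeq start on the plus strand, chr3:130180595-130180844 of GRCm38.p6, and holds 60.4% G and C. The RefSeq start lies inside the GENCODE span of the gene, downstream of its first base. TGACAG, the core of the sequence that TALE factors of the Meis group bind, was searched on both strands (as TGACAG and CTGTCA) and would stand in capitals. There is no match in this window.

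Col25a1: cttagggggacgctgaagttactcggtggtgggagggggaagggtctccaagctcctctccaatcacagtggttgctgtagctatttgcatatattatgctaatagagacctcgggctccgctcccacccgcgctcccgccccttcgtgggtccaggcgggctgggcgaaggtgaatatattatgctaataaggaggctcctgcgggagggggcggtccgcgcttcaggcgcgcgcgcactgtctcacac

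The other 3 transmembrane collagens were not called. Col13a1, a collagen of cell adhesions and the neuromuscular junction, had 212, 199 and 218 normalised reads in mutant libraries and 150, 179 and 171 in wildtype libraries A, B and C. All mutant libraries were above all wildtype libraries. Its base mean was 188 and its log2 fold change 0.26 (SE 0.126, p 0.0377, adjusted p 0.421, DESeq2 Wald test) with 6 libraries per the authors' deposited table. With 4 libraries they were 191 and 0.21 (SE 0.139, p 0.134, adjusted p 0.809, DESeq2 Wald test) per the authors' deposited table. Col23a1 had 2576 to 2814 normalised reads in mutant libraries and 2827 to 3215 in wildtype libraries, also without overlap, and Col17a1, a hemidesmosome collagen of epithelia, had 91.7 to 151 and 96.7 to 215, with overlap. Their log2 fold changes were -0.14 and -0.09, per the authors' deposited table of 6 libraries. The median of the class was -0.11 per the same authors' deposited table, with 1 gene above 0 and 3 below.

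**Figure D2:**
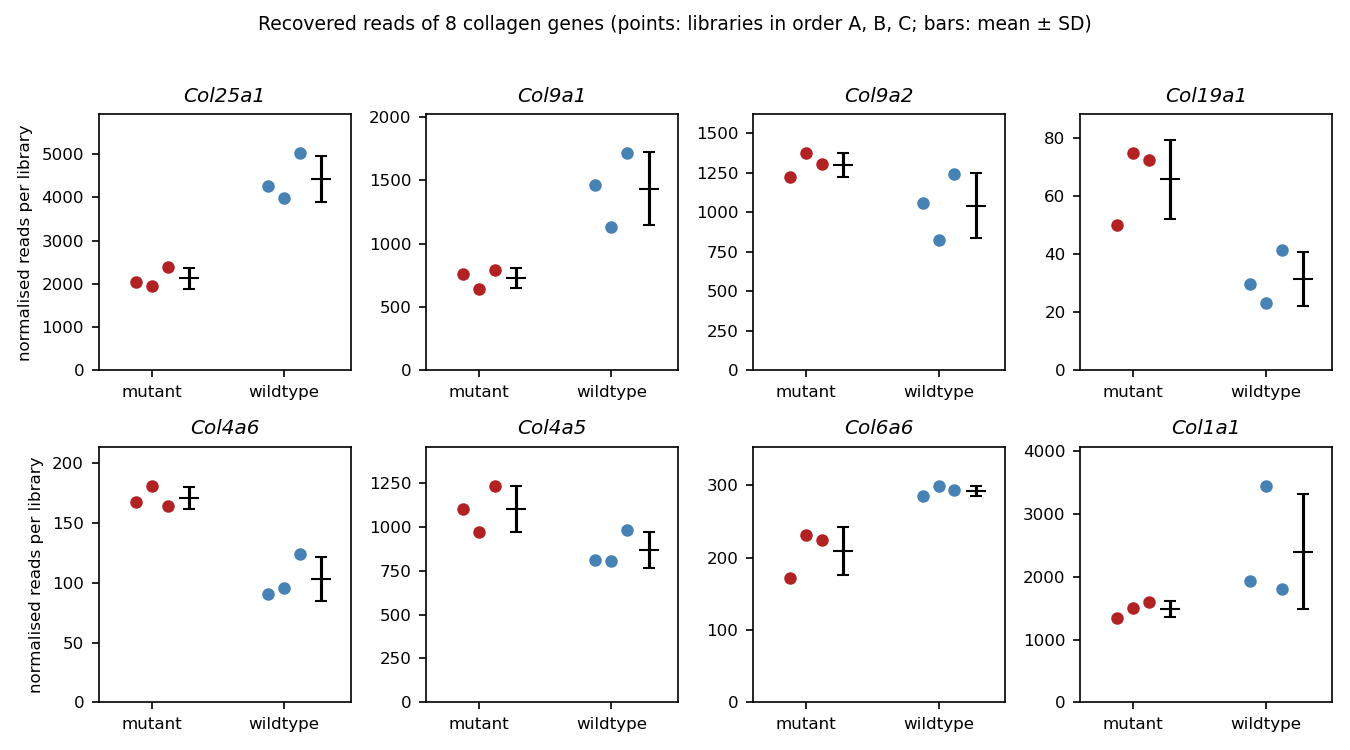
Normalised reads per library (linear axis from 0) of 8 collagen genes in 3 mutant (left, red) and 3 wildtype (right, blue) libraries, in the order A, B, C, with the mean and SD beside them. Col25a1 and Col9a1 lie lower and Col19a1 and Col4a6 higher in every mutant library, while Col9a2 and Col4a5 overlap between the genotypes and Col1a1 has 1 high wildtype library at 3451.

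FACIT collagens held 1 called gene in each direction among 9, beside 1.75% higher and 1.16% lower over all genes, per the authors' deposited table of 6 libraries. Their median log2 fold change was -0.01 per the same authors' deposited table. Collagen IX, which coats the collagen II fibrils of cartilage, is built from the chains of Col9a1, Col9a2 and Col9a3. Normalised reads of Col9a1 were 763, 641 and 789 in mutant libraries A, B and C, against 1459, 1134 and 1711 in wildtype libraries A, B and C. The highest mutant library was below the lowest wildtype library. The means were 731 ± 79.3 in mutant and 1435 ± 290 in wildtype libraries (SD, n = 3 each), a ratio of 0.510. With a base mean of 1083, Col9a1 had a log2 fold change of -0.78 (SE 0.118, p 3.53e-11, adjusted p 8.79e-09, DESeq2 Wald test) over 6 libraries per the authors' deposited table. For 4 libraries these were 1030 and -0.71 (SE 0.114, p 5.28e-10, adjusted p 1.42e-07, DESeq2 Wald test) per the authors' deposited table.

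Its partner chain Col9a2 was not called lower in either table. Col9a2 had 1219, 1371 and 1303 normalised reads in mutant libraries A, B and C, against 1059, 826 and 1238 in wildtype libraries A, B and C. Mutant library A lay below wildtype library C, so the groups overlapped. The base mean was 1170 and the log2 fold change 0.26 (SE 0.114, p 0.0217, adjusted p 0.320, DESeq2 Wald test) per the authors' deposited table of 6 libraries. Without the libraries C the base mean was 1155 and the log2 fold change 0.38 (SE 0.109, p 0.000535, adjusted p 0.0270, DESeq2 Wald test) per the authors' deposited table of 4 libraries. Col9a3 had 404, 331 and 359 normalised reads in mutant libraries and 391.5, 250 and 461 in wildtype libraries A, B and C, with overlap, and a log2 fold change of -0.01 per the authors' deposited table of 6 libraries.

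Chain ratios within a library do not depend on its size factor. They were computed for 17 pairs of chains written down after the values per library had been seen, so they are a description without a test, and 3 against 3 libraries could not give an exact two-sided permutation p under 0.1. The genotypes overlapped for Col9a3 per Col9a2, Col4a1 per Col4a2, Col11a1 per Col2a1 and Col8a2 per Col8a1, and not for the other pairs. Col11a1 per Col2a1 averaged 2.02 in mutant and 2.03 in wildtype libraries. How often ratios of other gene pairs separate the genotypes was not computed, so whether a lack of overlap is particular to collagens is not known. The reads of Col9a1 per read of Col9a2 were 0.626, 0.467 and 0.606 in mutant libraries A, B and C, against 1.38, 1.37 and 1.38 in wildtype libraries A, B and C. The SD over the wildtype libraries was 0.0051, although Col9a1 and Col9a2 both varied among them, lowest in B and highest in C. Col9a3 per Col9a2 was 0.331, 0.242 and 0.276 in mutant libraries and 0.370, 0.303 and 0.372 in wildtype libraries, with overlap. Col9a1 per Col2a1, the chain of the collagen II fibrils that collagen IX coats, was 0.223 to 0.282 in mutant and 0.338 to 0.50 in wildtype libraries.

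**Figure D3:**
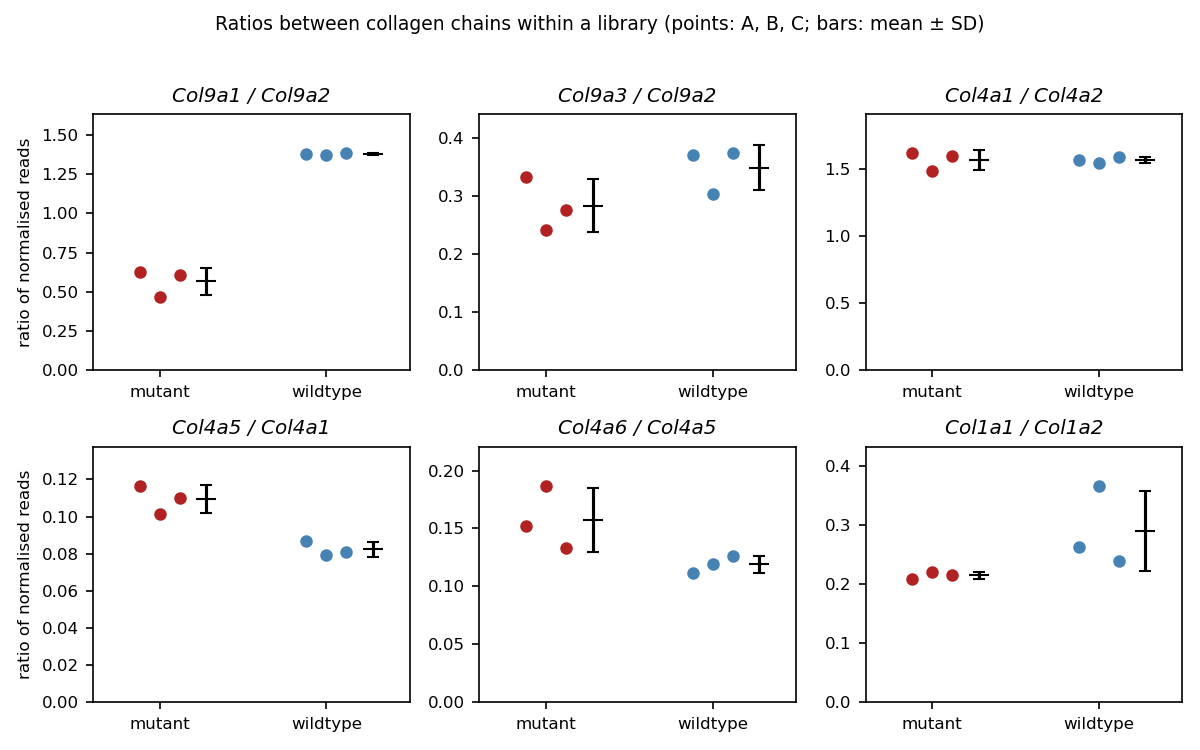
Ratios of normalised reads between 6 pairs of collagen chains within each library (linear axes from 0), in 3 mutant (left, red) and 3 wildtype (right, blue) libraries with mean and SD. Col9a1 per Col9a2 averages 0.566 in mutant and 1.38 in wildtype libraries, while Col4a1 per Col4a2 is 1.57 in both.

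Col19a1, the FACIT gene that rose, codes for a collagen of basement membrane zones that muscle cells of the mouse embryo make. Its normalised reads were 50.1, 74.6 and 72.4 in mutant libraries A, B and C, against 29.6, 23.2 and 41.4 in wildtype libraries A, B and C. The groups did not overlap, and mutant library A was nearest to the wildtype libraries. The means were 65.7 ± 13.6 in mutant and 31.4 ± 9.22 in wildtype libraries (SD, n = 3 each), a ratio of 2.09. At a base mean of 48.6 the moderated log2 fold change was 0.50 (SE 0.150, p 0.000870, adjusted p 0.0324, DESeq2 Wald test) over 6 libraries per the authors' deposited table. At 45.8 over 4 libraries it was 0.34 (SE 0.130, p 0.00874, adjusted p 0.192, DESeq2 Wald test) per the authors' deposited table, so the call was lost.

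Col9a1 and Col19a1 are neighbours. Col9a1 lies on the plus strand of chromosome 1 at 24177610 to 24252684 and Col19a1 on the minus strand at 24261890 to 24587472 (GRCm38, GENCODE M21). Their 3' ends face each other across 9.21 kb with 0 coding genes between, while their starts are 410 kb apart. Col9a1 per Col19a1 was 8.59 to 15.2 in mutant libraries and 41.3 to 49.4 in wildtype libraries, without overlap. The 250 bases before both RefSeq starts of Col9a1 and before that of Col19a1 are shown because these neighbours changed in opposite directions. The windows are chr1:24177360-24177609 and chr1:24194953-24195202 on the plus strand for Col9a1 and chr1:24587438-24587687 on the minus strand for Col19a1, all of GRCm38.p6. The downstream start of Col9a1 gives a chain with a shorter amino end, and counts per gene do not separate the starts. Capitals mark TGACAG or CTGTCA, found once before Col19a1 and not in either Col9a1 window.

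Col9a1 upstream start: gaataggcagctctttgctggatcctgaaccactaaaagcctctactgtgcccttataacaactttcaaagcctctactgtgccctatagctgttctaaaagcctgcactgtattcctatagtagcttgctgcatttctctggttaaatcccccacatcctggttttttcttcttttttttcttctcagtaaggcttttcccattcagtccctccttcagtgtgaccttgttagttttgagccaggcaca

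Col9a1 downstream start: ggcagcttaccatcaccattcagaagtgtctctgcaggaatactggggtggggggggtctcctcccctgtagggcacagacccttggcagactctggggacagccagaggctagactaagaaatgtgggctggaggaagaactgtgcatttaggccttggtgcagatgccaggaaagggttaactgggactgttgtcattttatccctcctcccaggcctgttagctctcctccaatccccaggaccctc

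Col19a1: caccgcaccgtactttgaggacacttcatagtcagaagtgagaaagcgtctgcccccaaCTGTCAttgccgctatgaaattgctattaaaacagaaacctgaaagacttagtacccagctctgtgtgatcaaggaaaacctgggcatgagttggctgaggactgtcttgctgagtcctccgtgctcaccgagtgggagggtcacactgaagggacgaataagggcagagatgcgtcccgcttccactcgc

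The remaining FACIT collagens were not called in either table. Col12a1, which binds collagen I fibrils in tendon and bone, had a base mean of 11605 and a log2 fold change of -0.11 (SE 0.113, p 0.341, adjusted p 0.849, DESeq2 Wald test) per the authors' deposited table of 6 libraries. For 4 libraries they were 11147 and -0.04 (SE 0.137, p 0.790, adjusted p 1.00, DESeq2 Wald test) per the authors' deposited table. Its reads per library were not recovered. Col14a1, Col16a1, Col20a1 and Col22a1, a gene of the junction between muscle and tendon, had log2 fold changes of -0.16, -0.16, 0.03 and 0.12 per the authors' deposited table of 6 libraries. Normalised reads of all 4 genes overlapped between the genotypes.

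Network collagens held 1 gene called higher among 8 measured, Col4a6, beside 1.75% of all genes, per the authors' deposited table of 6 libraries. Their median log2 fold change was 0.09 per the same authors' deposited table. Chains of Col4a5 and Col4a6 form the collagen IV of some basement membranes, as around smooth muscle, whereas Col4a1 and Col4a2 make the collagen IV of nearly all. Col4a6 had 168, 181 and 164 normalised reads in mutant libraries A, B and C, against 90.3, 95.5 and 124 in wildtype libraries A, B and C. Every mutant library was above every wildtype library, of which C was the highest. The means were 171 ± 9.06 in mutant and 103 ± 18.2 in wildtype libraries (SD, n = 3 each), a ratio of 1.65. Over 6 libraries, at a base mean of 137, the log2 fold change was 0.52 (SE 0.136, p 0.000149, adjusted p 0.00767, DESeq2 Wald test) per the authors' deposited table. Over 4 libraries, at 138, it was 0.50 (SE 0.143, p 0.000413, adjusted p 0.0219, DESeq2 Wald test) per the authors' deposited table.

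Col4a5 was not called. It had 1102, 969 and 1232 normalised reads in mutant libraries A, B and C, against 808, 803 and 983 in wildtype libraries A, B and C. Only mutant library B reached into the wildtype range, just under wildtype library C. The log2 fold change was 0.30 at a base mean of 983 (SE 0.108, p 0.00592, adjusted p 0.141, DESeq2 Wald test) with 6 libraries per the authors' deposited table. With 4 libraries it was 0.32 at 950 (SE 0.103, p 0.00207, adjusted p 0.0743, DESeq2 Wald test) per the authors' deposited table. Col4a6 per Col4a5 was 0.133 to 0.187 in mutant libraries and 0.112 to 0.126 in wildtype libraries, without overlap.

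Both genes lie on chromosome X, head to head. Col4a6 is on the minus strand at 141165403 to 141474076 and Col4a5 on the plus strand at 141475385 to 141689234 (GRCm38, GENCODE M21), so that their starts are 1.31 kb apart. The stretches before both RefSeq starts are shown because the genes share this gap. The Col4a5 window runs a little past the GENCODE start of the gene, and that of Col19a1 does likewise. They are chrX:141474077-141474326 on the minus strand for Col4a6 and chrX:141475169-141475418 on the plus strand for Col4a5, in GRCm38.p6. TGACAG, in capitals, occurs once before Col4a6 and not before Col4a5.

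Col4a6: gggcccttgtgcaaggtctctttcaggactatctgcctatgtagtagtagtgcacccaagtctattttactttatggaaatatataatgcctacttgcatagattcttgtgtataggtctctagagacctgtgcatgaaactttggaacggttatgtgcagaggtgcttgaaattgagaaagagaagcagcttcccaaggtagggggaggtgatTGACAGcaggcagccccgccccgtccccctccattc

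Col4a5: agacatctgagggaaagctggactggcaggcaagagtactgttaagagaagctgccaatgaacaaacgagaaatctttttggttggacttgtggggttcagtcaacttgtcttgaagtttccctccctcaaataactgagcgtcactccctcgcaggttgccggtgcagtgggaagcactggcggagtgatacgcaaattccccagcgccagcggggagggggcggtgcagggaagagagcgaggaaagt

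The motif was present in 5 of the 38 such windows of 35 collagen genes (13.2%), those of Col3a1, Col4a6, Col6a6, Col7a1 and Col19a1, and in 15.9% of all 32851 windows in the RefSeq table. It was chosen after the values had been seen. A match describes the letters and shows no binding.

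Sex-linked genes differed between the libraries, and their values are given beside this X-linked pair. The 4 Y-linked genes Ddx3y, Eif2s3y, Kdm5d and Uty, chosen after the values had been seen, summed to 5433, 4790 and 4861 normalised reads in mutant libraries A, B and C, against 3730, 3331 and 4438 in wildtype libraries A, B and C. All mutant libraries were above all wildtype libraries. Xist, which is transcribed from the inactive X of female cells, had a base mean of 26796 per the authors' deposited table of 6 libraries, so RNA of both sexes was present over the libraries together. Its log2 fold change was -0.08 (adjusted p 0.919, DESeq2 Wald test) with 6 libraries and -0.38 (adjusted p 4.32e-05) with 4 libraries per the authors' deposited tables. The part of sex in the values of Col4a5 and Col4a6 was not tested.

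The common collagen IV chains were not called in either table. Col4a1 and Col4a2 overlap head to head on chromosome 8. Col4a1 had a base mean of 10295 and a log2 fold change of -0.06 (SE 0.102, p 0.585, adjusted p 0.932, DESeq2 Wald test) per the authors' deposited table of 6 libraries. For Col4a2 they were 6566 and -0.05 (SE 0.10, p 0.601, adjusted p 0.933, DESeq2 Wald test) per the same authors' deposited table. With 4 libraries the base means were 9903 and 6382 and the log2 fold changes -0.02 (SE 0.0720, p 0.768) and -0.01 (SE 0.0798, p 0.880), both with an adjusted p of 1.00 (DESeq2 Wald test), per the authors' deposited table. Col4a1 per Col4a2 was 1.57 ± 0.0722 in mutant and 1.57 ± 0.0228 in wildtype libraries (SD, n = 3 each). Col4a5 per Col4a1 was 0.101 to 0.117 in mutant libraries and 0.0796 to 0.0868 in wildtype libraries, without overlap.

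Reads per library of Col4a1, Col4a2, Col1a2, Col5a1, Col6a3 and Col11a1 had several solutions from the base means and were settled with the deposited fold changes. Their values per library, and ratios that use them, are therefore not independent of those fold changes.

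Of the other network collagens, Col8a2 and Col8a1, which form the sheet under the corneal endothelium, had log2 fold changes of 0.17 and -0.06 per the authors' deposited table of 6 libraries. Col10a1, made by hypertrophic cartilage cells, had 131, 100 and 163 normalised reads in mutant libraries and 110, 76.2 and 110 in wildtype libraries, with overlap. Col4a4 had 7.34 to 20.9 normalised reads in mutant libraries and 12.9 to 16.6 in wildtype libraries. Col4a3, which pairs with Col4a4 in kidney and lung, had 3.67 to 7.65 and 0.799 to 6.46, too few to compare.

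Fibrillar collagens held 0 called genes among 11 in either table (DESeq2 Wald test). At an unadjusted p under 0.05, 2 were lower and 0 higher with 6 libraries per the authors' deposited table. The shares over all genes at a base mean of 10 or more were 5.21% and 5.46% per the same authors' deposited table. The 2 were Col1a1 and Col1a2, the chains of the collagen I of bone, skin and tendon. The limma fit on recovered reads, which holds 9 of the 11, called 0 as well. Over the class 8 genes lay below 0 and 3 above, with a median log2 fold change of -0.10, per the authors' deposited table of 6 libraries.

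Col1a1 had 1352, 1503 and 1598 normalised reads in mutant libraries A, B and C, against 1939, 3451 and 1813 in wildtype libraries A, B and C. The groups did not overlap, but wildtype library B stood far above the other two. In the authors' deposited table of 6 libraries its base mean was 1943 and its log2 fold change -0.32 (SE 0.150, p 0.0324, adjusted p 0.395, DESeq2 Wald test). In that of 4 libraries, which holds wildtype library B, the authors' deposited table gave 2125 and -0.29 (SE 0.135, p 0.0286, adjusted p 0.400, DESeq2 Wald test). By limma on the recovered reads the log2 fold change was -0.63 with all libraries and -0.34 without wildtype library B.

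Col1a2 had 6463, 6815 and 7421 normalised reads in mutant libraries A, B and C, against 7390, 9406 and 7558 in wildtype libraries A, B and C. Mutant library C lay just above wildtype library A, so the groups overlapped, and wildtype library B was again the highest. Its base mean was 7509 and its log2 fold change -0.21 (SE 0.0990, p 0.0380, adjusted p 0.422, DESeq2 Wald test) over 6 libraries per the authors' deposited table. Over 4 libraries they were 7755 and -0.29 (SE 0.0920, p 0.00146, adjusted p 0.0599, DESeq2 Wald test) per the authors' deposited table. Col1a1 per Col1a2 was 0.209, 0.221 and 0.215 in mutant libraries and 0.262, 0.367 and 0.240 in wildtype libraries, without overlap.

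The most abundant fibrillar genes were not called. Col3a1, the chain of the fine fibrils of loose connective tissue, had a base mean of 50618 and a log2 fold change of -0.10 (SE 0.0815, p 0.223, adjusted p 0.778, DESeq2 Wald test) per the authors' deposited table of 6 libraries. Col5a2 and Col5a1, chains of the collagen V that starts and limits collagen I fibrils, had base means of 15597 and 7907 per the authors' deposited table of 6 libraries. Their log2 fold changes were 0.07 (SE 0.0836, p 0.373, adjusted p 0.865) and 0.10 (SE 0.0906, p 0.248, adjusted p 0.792) by the DESeq2 Wald test per the same authors' deposited table. Col11a1, which joins cartilage fibrils, had a base mean of 6384 and a log2 fold change of -0.12 (SE 0.103, p 0.237, adjusted p 0.789, DESeq2 Wald test) per the same authors' deposited table.

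With 4 libraries the base means of Col3a1, Col5a2, Col5a1 and Col11a1 were 50965, 15619, 7822 and 6266 per the authors' deposited table. Col3a1 had a log2 fold change of -0.06 (SE 0.0677, p 0.404, adjusted p 0.999) and Col5a2 of 0.12 (SE 0.0672, p 0.0648, adjusted p 0.599) by the DESeq2 Wald test per the authors' deposited table of 4 libraries. Col5a1 had 0.17 (SE 0.0699, p 0.0151, adjusted p 0.269) and Col11a1 -0.03 (SE 0.0874, p 0.714, adjusted p 1.00) on the same scale of the authors' deposited table by the DESeq2 Wald test. Col5a1 per Col1a2 was 1.16 to 1.22 in mutant libraries and 0.761 to 1.13 in wildtype libraries, without overlap. Reads per library of Col3a1 and Col5a2 were not recovered.

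Among the cartilage fibrils, Col2a1 had 2702, 2878 and 3546 normalised reads in mutant libraries and 2916, 3356 and 3670 in wildtype libraries, and Col11a2 had 136 to 142 and 102 to 192. Both overlapped between the genotypes. The minor fibrillar genes Col24a1 and Col27a1 and the rare chain Col5a3 had log2 fold changes of -0.11, -0.05 and 0.01 per the authors' deposited table of 6 libraries, and their normalised reads overlapped.

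Beaded filament collagens, the chains of collagen VI that surround cells in most connective tissue, held 0 called genes among 5 measured in either table (DESeq2 Wald test). In the 6-library comparison 1 of them, Col6a6, was lower at an unadjusted p under 0.05 per the authors' deposited table. The share over all genes at a base mean of 10 or more was 5.21% per the same authors' deposited table. By limma on the recovered reads 0 were called. Col6a6, one of the chains that can take the place of Col6a3, had 172, 231 and 225 normalised reads in mutant libraries A, B and C, against 285, 300 and 293 in wildtype libraries A, B and C. The groups did not overlap, and mutant library A was the lowest. Col6a6 had a base mean of 251 and a log2 fold change of -0.38 (SE 0.124, p 0.00196, adjusted p 0.0632, DESeq2 Wald test) per the authors' deposited table of 6 libraries. With 4 libraries it had 255 and -0.35 (SE 0.137, p 0.00963, adjusted p 0.201, DESeq2 Wald test) per the authors' deposited table.

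Col6a3, the chain of the usual trimer, had 6459, 6464 and 7251 normalised reads in mutant libraries A, B and C, against 5983, 5066 and 6384 in wildtype libraries A, B and C. The lowest mutant library was just above the highest wildtype library. Its base mean was 6268 and its log2 fold change 0.19 (SE 0.0957, p 0.0517, adjusted p 0.482, DESeq2 Wald test) with 6 libraries per the authors' deposited table. With 4 libraries these were 6185 and 0.21 (SE 0.0829, p 0.0111, adjusted p 0.22, DESeq2 Wald test) per the authors' deposited table. Col6a1 had 1843, 2029 and 1965 normalised reads in mutant libraries and 2118, 2071 and 2168 in wildtype libraries, and did not overlap, whereas Col6a2 did. Col6a3 per Col6a1 was 3.19 to 3.69 in mutant libraries and 2.45 to 2.94 in wildtype libraries, and Col6a6 per Col6a3 was 0.0266 to 0.0358 and 0.0459 to 0.0591. Col6a4 had 147 to 170 and 165 to 199 normalised reads in mutant and wildtype libraries, and Col6a5 4.87 to 8.56 and 3.55 to 11.6. Col6a6, Col6a5 and Col6a4 are neighbours in that order on chromosome 9.

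The last 5 genes were not called. Col26a1, a secreted collagen outside the main classes, had 3640, 3554 and 3581 normalised reads in mutant libraries A, B and C, against 2936, 3247 and 3200 in wildtype libraries A, B and C. All mutant libraries were higher. It had a base mean of 3360 and a log2 fold change of 0.18 (SE 0.0817, p 0.0241, adjusted p 0.338, DESeq2 Wald test) per the authors' deposited table of 6 libraries. With 4 libraries it had 3451 and 0.21 (SE 0.0809, p 0.0102, adjusted p 0.210, DESeq2 Wald test) per the authors' deposited table. Col7a1, the anchoring fibril gene of the skin, and Col15a1 and Col18a1, the multiplexins of basement membranes, had log2 fold changes of -0.02, 0.04 and -0.01 per the authors' deposited table of 6 libraries. Col28a1 had 11 to 11.3 normalised reads in mutant libraries and 5.16 to 17.7 in wildtype libraries.

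Counted over the 39 genes with recovered reads at a base mean of 10 or more, 5 were higher in every mutant library than in any wildtype library (12.8%), beside 8.79% of 14191 genes. They were Col4a6, Col6a3, Col13a1, Col19a1 and Col26a1. Lower in every mutant library were 6 (15.4%), beside 8.86% of all, namely Col1a1, Col6a1, Col6a6, Col9a1, Col23a1 and Col25a1. The genotypes overlapped for the other 28. These are counts of a few genes that share libraries, and no difference from the background was tested.

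The called genes were of middle and low level per kilobase of exon. Per kilobase of exon (GENCODE M21), Col3a1 alone held 28.8% of the summed base mean of the collagen genes per the authors' deposited table of 6 libraries. Fibrillar genes together held 53.8%, network genes 18.4%, FACIT genes 10.8%, beaded filament genes 7.87% and transmembrane genes 4.51% of that sum per the authors' deposited table. Among the 44 genes ordered by base mean per kilobase, Col25a1 was at rank 20, Col9a1 at 21, Col4a6 at 37 and Col19a1 at 38, from the authors' deposited table. All 19 genes above them were not called with 6 libraries. Amplification before library preparation and unequal coverage along a transcript limit this comparison between genes. The exon length joins the exons of all annotated transcripts of a gene, 12947 bases for Col25a1. Genes with long or additional annotated exons therefore rank lower than by base mean alone.

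**Figure D4:**
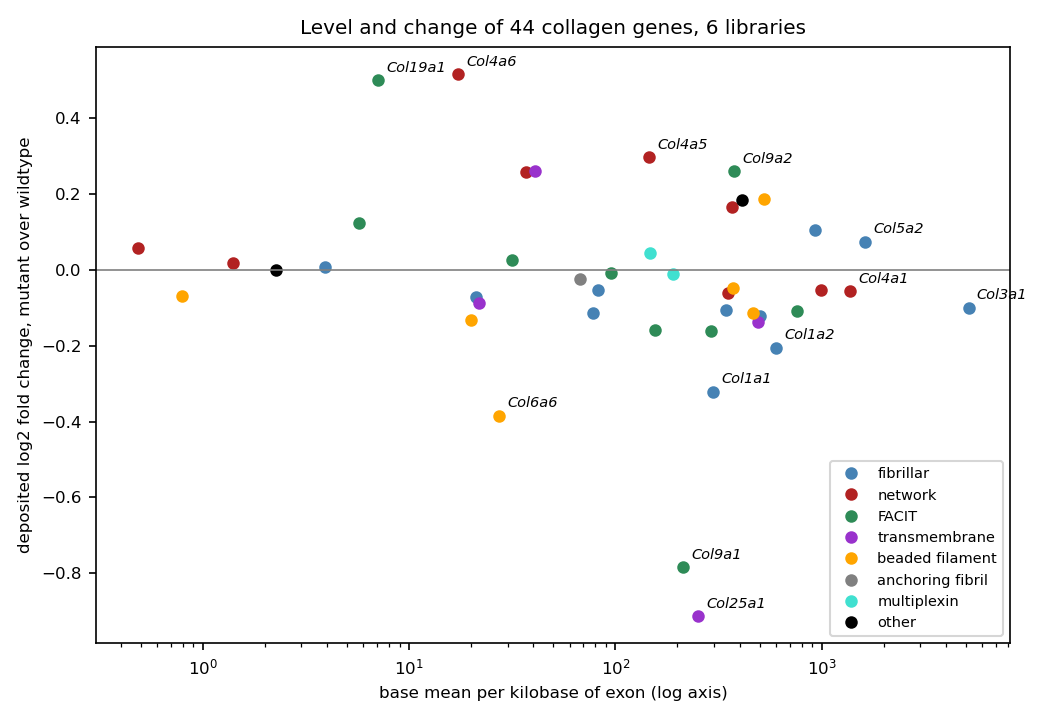
Base mean per kilobase of exon (log axis) against deposited log2 fold change, mutant over wildtype, for 44 collagen genes with 6 libraries, coloured by class. Col3a1, the most abundant at the right, lies at -0.10, and the 4 called genes lie at middle and low levels.

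Enzymes that modify and cross-link collagen were described next, since chains need them to become fibrils. Of 33 genes of collagen biosynthesis and assembly, all measured, 3 rose, 0 fell and 30 were not called, beside 1.75% higher and 1.16% lower over all genes, per the authors' deposited table of 6 libraries. Their median log2 fold change was -0.01 per the same authors' deposited table. Lox, the lysyl oxidase that starts cross-links between fibrils, had 3074, 3720 and 3505 normalised reads in mutant libraries A, B and C, against 1926, 1544 and 1914 in wildtype libraries A, B and C. The groups were far apart, and the log2 fold change was 0.81 (adjusted p 7.83e-13, SE 0.102, DESeq2 Wald test) per the authors' deposited table. P3h2, a prolyl 3-hydroxylase that acts on collagen IV, had 380, 377 and 430 normalised reads in mutant libraries and 245, 187 and 219 in wildtype libraries, without overlap. Its log2 fold change was 0.69 (adjusted p 1.52e-06, DESeq2 Wald test) per the authors' deposited table. Plod2, the lysyl hydroxylase of the collagen telopeptides, had 3831, 3867 and 4164 normalised reads in mutant libraries and 3083, 3097 and 3138 in wildtype libraries, and a log2 fold change of 0.32 (adjusted p 0.00373, DESeq2 Wald test) per the authors' deposited table. All 3 were also called in the 4-library table. The collagen chaperone gene Serpinh1 and the prolyl 4-hydroxylase gene P4hb, at -0.11 each, were not called per the authors' deposited table.

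Collagen receptors had 1 gene called higher of 8 measured, beside 1.75% of all genes, per the authors' deposited table of 6 libraries. Their median log2 fold change was 0.10 per the same authors' deposited table. Itga11, the integrin chain that binds collagen I, had 152, 160 and 168 normalised reads in mutant libraries and 85.5, 60.7 and 88.7 in wildtype libraries, without overlap. Its log2 fold change was 0.70 (SE 0.140, adjusted p 6.25e-05, DESeq2 Wald test) per the authors' deposited table. The median over 15 measured genes of proteins that sit on collagen fibrils was -0.05 per the authors' deposited table of 6 libraries. Of these 15, 3 fell and 0 rose, beside 1.16% and 1.75% of all genes, per the same authors' deposited table. They were Aspn at -0.80, the matrilin gene Matn4 at -0.69 and Postn, which helps cross-linking, at -0.40, per the authors' deposited table. Aspn was not called per the authors' deposited table of 4 libraries (log2 fold change -0.39, adjusted p 0.152, DESeq2 Wald test). Collagenases and gelatinases had 0 called of 5 measured in either table. With 6 libraries 1 (Mmp9 at -0.36) was lower at an unadjusted p under 0.05 per the authors' deposited table. The share over all genes at a base mean of 10 or more was 5.21% per the same authors' deposited table.

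**Figure D5:**
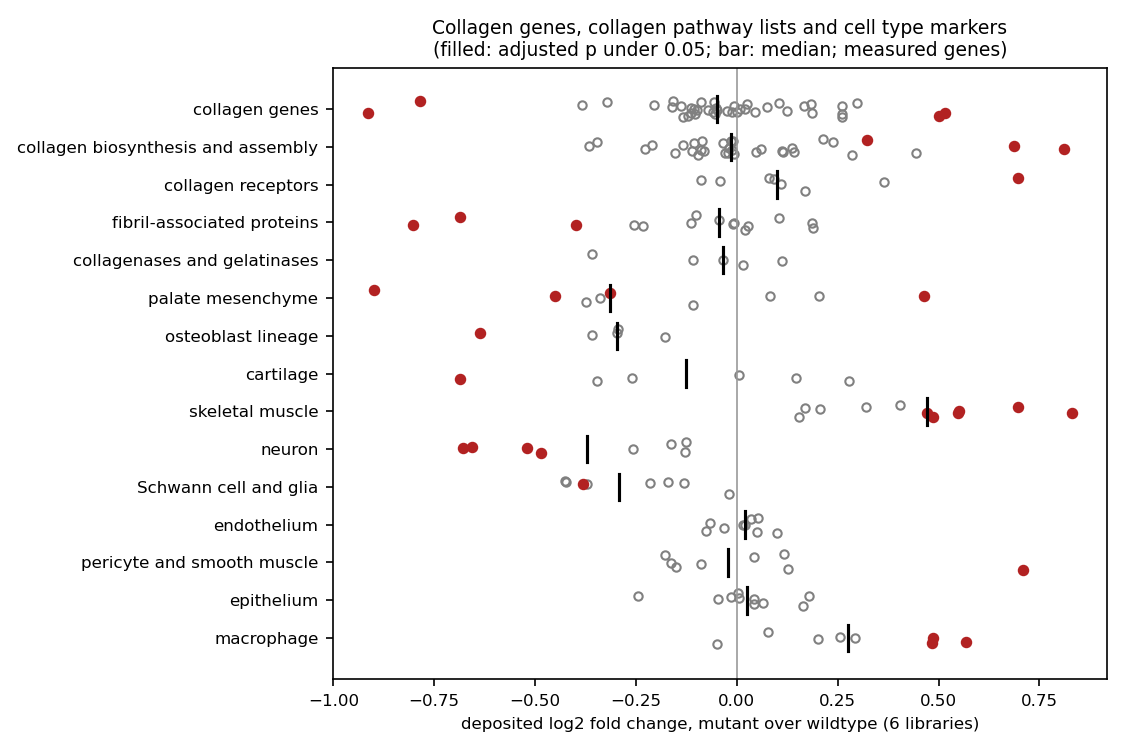
Deposited log2 fold change (mutant over wildtype, 6 libraries) of measured collagen genes, genes of 4 collagen pathway lists and genes of 10 lists of cell type markers, with the median of each as a bar. Filled red points have an adjusted p under 0.05; skeletal muscle markers all lie above 0 and neuron markers all below 0, while the median of the collagen genes is -0.05.

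Markers of other cell types moved with the genotype, and in such bulk samples fewer cells of a type and less RNA per cell cannot be told apart. The tissue label was checked on 9 palate mesenchyme markers, all measured, among them Osr2, Pdgfra and Prrx1 with base means of 580, 16535 and 10660 per the authors' deposited table. The lowest were Tfap2a at 48.7 and Msx1 at 103 per the same authors' deposited table. Over all genes, 1.75% were called higher and 1.16% lower with 6 libraries, and 1.31% and 0.99% with 4, per the authors' deposited tables. Beside that, of these 9, Pax9 rose and Shox2, Twist1 and Prrx1 fell with 6 libraries per the authors' deposited table. With 4 libraries these were called again in the same directions, and Pdgfra was called higher as well, per the authors' deposited table. Of 11 measured skeletal muscle markers 6 rose and 0 fell with 6 libraries, and 2 rose with 4, per the authors' deposited tables. Over 8 of them the sums were 950, 2375 and 1069 normalised reads in mutant libraries A, B and C, against 483, 440 and 562 in wildtype libraries A, B and C. From highest to lowest, both these sums and the reads of Col19a1 ran B, C, A over the mutant libraries and C, A, B over the wildtype libraries. The order C, A, B over the wildtype libraries was also that of Col9a1, Col9a2, Col9a3 and the neuron sums. The order B, C, A over the mutant libraries was also that of Col6a6, which was lower in the mutant libraries, and of Lox. Neither order is therefore particular to Col19a1, and a link to muscle was not tested. Of the 2375 reads in mutant library B, 880 were of Acta1 and 722 of Actc1. Reads of Myh3, Tnnt3 and Ttn were not recovered and are not in the sums. The reads of Col25a1 ran C, A, B in both genotypes. Of 8 measured neuron markers 4 fell and 0 rose with 6 libraries, and 1 fell with 4, per the authors' deposited tables. Over all 11 listed neuron markers the sums were 440, 466 and 423 normalised reads in mutant libraries, against 706, 652 and 1180 in wildtype libraries A, B and C.

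The same shares over all genes, 1.75% higher and 1.16% lower with 6 libraries and 1.31% and 0.99% with 4, stand beside the following counts. Of 6 measured cartilage markers 1 fell (Matn4) and 0 rose with 6 libraries per the authors' deposited table. Sox9, the regulator of cartilage collagens, was at -0.35 (adjusted p 0.0738, DESeq2 Wald test) per the same authors' deposited table. With 4 libraries 2 of the 6 fell, Matn4 and Sox9, and Sox9 was at -0.42 (adjusted p 0.0125, DESeq2 Wald test) per the authors' deposited table. Of the 6 measured, 3 lay above 0 and 3 below with 6 libraries per the authors' deposited table. The matrix genes Acan at 0.28 and Hapln1 at 0.15 were above 0 and not called. Over 8 cartilage markers the sums were 3499, 3151 and 3481 normalised reads in mutant libraries and 4208, 3582 and 4212 in wildtype libraries, without overlap. The regulator gene Sox6 alone held 1373 to 1711 of these reads in mutant and 1672 to 2045 in wildtype libraries. Of 5 measured osteoblast markers Runx2 fell and 0 rose per the authors' deposited table of 6 libraries, and 0 were called with 4. All 5 lay below 0 with 6 libraries. At an unadjusted p under 0.05 (DESeq2 Wald test), 4 were lower with 6 libraries and 1, Runx2, with 4 per the authors' deposited tables. Beside that, 5.21% of all genes at a base mean of 10 or more were lower with 6 libraries, and 685 of 14559 with 4. The 8 listed osteoblast genes summed to 834 to 1249 normalised reads in mutant libraries and 1645 to 1707 in wildtype libraries, without overlap. Runx2 held 648 to 1000 of these in mutant and 1312 to 1428 in wildtype libraries, so the sums mainly repeat this gene. Of 8 macrophage markers 3 rose with 6 libraries and 2 with 4 per the authors' deposited tables, with sums of 1058 to 1239 in mutant and 701 to 882 in wildtype libraries. Of 8 measured glial markers 1 (Ngfr, -0.38) fell with 6 libraries and 0 with 4 (Ngfr at -0.32, adjusted p 0.175, DESeq2 Wald test) per the authors' deposited tables. All 8 lay below 0 with 6 libraries, and 6 with 4. At an unadjusted p under 0.05 (DESeq2 Wald test), 4 were lower with 6 libraries and 3 with 4 per the authors' deposited tables. The same shares as for the osteoblast markers, 5.21% and 685 of 14559 genes, stand beside these counts. By limma 1 glial marker was called, beside 1.3% higher and 0.846% lower of all genes in that fit. The glial sums were 1196 to 1355 in mutant and 1395 to 1878 in wildtype libraries. Smooth muscle and pericyte markers had 1 higher gene, Acta2, of 8 per the authors' deposited table, and endothelial and epithelial markers had 0 called of 9 and of 10 in either table (DESeq2 Wald test), with 0 at an unadjusted p under 0.05 per the authors' deposited tables. By limma 0 of the endothelial, epithelial and collagenase genes were called as well. None of these lists had a gene listed at 0, and Mymk, Cnmd and Snorc were not analysed here. The part of these cell types in the values of Col25a1, Col9a1, Col19a1 and Col4a6 was not tested.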

How the data were processed

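RNA-seq of 3 Wnt1Cre;Meis2f/f and 3 wildtype samples was used. RNA was reverse transcribed, amplified and made into TruSeq v2 libraries, per the labels' protocols. For the authors' own steps, the submitters' processing notes list the tools HISAT2, featureCounts and DESeq2 and the builds GRCm38 and mm10. No source used here states their settings or the strand rule of the counting. Without strand, reads of overlapping genes such as Col4a1 and Col4a2, or Col10a1 and Nt5dc1, cannot be told apart.

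The deposited base mean is a signal, an average over libraries of counts scaled by size factors. Fold changes with their standard errors were deposited on the log2 scale. The Wald statistic is a score that the authors deposited. Each p-value and adjusted p-value is the deposited one of the DESeq2 Wald test run by the authors. One more deposited table was not used, since its gene names are all in the first. The design text describes the tables as pairs of libraries of the same number, but single-read genes show 6 libraries in the first table and 4 of these in the second.

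Whole reads per library were solved from the base means, which carry 10 significant digits in the 6-library and 15 in the 4-library table. A gene with 1 read in all gives the size factor of its library, and the sign of its fold change gives the genotype side. Over the other genes, whole numbers were searched that give both base means. Of 14205 genes tried, 14151 had 1 solution, and in a test on simulated data 297 of 300 were recovered exactly and 0 wrongly. Where several solutions remained, a line fitted on known genes related the ratio of the genotypes to the deposited fold changes. A solution was kept only if it alone lay within a window of 0.012 (log2) of that line in both tables. This held for 40 genes, 6 collagen genes among them, and other genes with several solutions were left out. The 6 collagen genes have base means above 5000, so the test on simulated data does not cover their reads. The window was set after seeing the residuals of 1629 known genes, so that all of these lie within it is no separate check. For all 1411 recovered genes with an absolute Wald statistic over 2, the ratio of the genotypes had the deposited sign.

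Calls rest on the authors' adjusted p under 0.05, and medians on genes at a base mean of 10 or more. As an addition, limma 3.58.1 in R 4.3.3 was fitted to log2(normalised reads + 1) over 14191 genes, with all libraries and with each left out in turn. The recovery of reads and this fit were added after the data had been examined, and no other tool was run on the reads. Every collagen gene is named, with full values for those called in either table, those with an unadjusted p under 0.05 over 6 libraries and the 10 with the highest base mean. The members, the gene lists and the classes were chosen with earlier results of these data known, and chain pairs, sex-linked genes, neighbours and the motif after values per library had been seen. Promoter windows come from RefSeq (GRCm38.p6), which held 35 of the 44 genes. Other scripts used Python 3.11.15. Besides Mymk, Cnmd and Snorc, which were not analysed here, 2 further marker genes are not reported here and stay out of the counts and sums.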

Additional observations from a re-analysis of the deposited data

How the results depend on the processing

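Col25a1 and Col9a1 were called lower under every alternative run: with 4 libraries, with p adjusted over every gene, with limma on the recovered reads, and in 6 of 6 limma fits that each left out 1 library. Their log2 fold changes ranged from -1.14 to -0.90 and from -1.12 to -0.71. The calls of the rises depended more on the setting. The number of collagen genes called higher, 2 over 6 libraries, was 1 with a minimum base mean of 100, 1 with limma (beside 1.3% called higher among all genes in that fit), and 0 to 2 when limma left out 1 library each. Col4a6 had an adjusted p of 0.0349 by limma and was called in 2 of 6 of these leave-one-out fits, those without mutant C and without wildtype C (adjusted p 0.0125 to 0.178), while its log2 fold change was 0.73 with all libraries and 0.64 to 0.87 in those fits. Col19a1 had an adjusted p of 0.0684 by limma and was called in 1 of 6 fits, that without wildtype C (adjusted p 0.0277 to 0.250), while its log2 fold change was 1.06 with all libraries and 0.87 to 1.27 in those fits. The number called lower was 2, and 3 at an adjusted p under 0.1, where Col6a6 was added. Shares over all genes are not given for the leave-one-out fits, which hold fewer libraries, or for an adjusted p under 0.1. These counts can therefore not be set against other genes.

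When limma left out 1 library each, the median log2 fold change ranged from -0.11 to 0.10 over the collagen genes, from 0.0035 to 0.29 for network, from -0.16 to 0.21 for FACIT, from -0.25 to 0.082 for transmembrane, from -0.19 to -0.014 for fibrillar and from -0.14 to -0.085 for beaded filament collagens. The signs of the collagen, FACIT and transmembrane medians depend on single libraries. The FACIT median was -0.16 without wildtype B and 0.21 without wildtype C, the collagen median 0.10 and the transmembrane median 0.082 without wildtype C. With beaded filament and anchoring fibril genes counted as network, the network median was -0.036. The causes were not tested. Col1a1 was not called in any of these fits, and its log2 fold change of -0.63 by limma was -0.34 without wildtype B.

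No paired analysis was possible because the tables do not show which labelled replicate a library is. The limma fits and the leave-one-out fits were chosen after seeing the data. Moderation draws the fold changes of genes with few reads, such as Col4a3, Col4a4, Col6a5 and Col28a1, most strongly toward 0, and the power to detect a difference in them was not tested.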
